A study of Mus musculus with 9 samples.

Results

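Wnt signalling in D2.0R cells was described through 53 genes, written out as a list that covers Wnt ligands, Frizzled receptors and their co-receptors, the beta-catenin destruction complex, TCF/LEF factors, secreted inhibitors and feedback targets. All 53 were present among the 23309 gene symbols of the RNA-seq files, and 31 of them passed a filter on low values, which asks for 1 FPKM or more on average and left 10497 genes in all. FPKM divide the fragments of a transcript by its length and by the mapped fragments of the library, and the values of a gene's transcripts were summed. D2.0R is a mouse mammary tumour line whose cells remain dormant on a basement membrane extract (BME), and adding type I collagen (COL) to that matrix makes them proliferate. Libraries were made from 3 groups, BME day 1, BME day 5 and BME + COL day 5, with replicates a, b and c in each, all in low glucose DMEM with 2% FBS, with no added agent and no altered gene. The study thus rests on 1 cell line in culture, and BME + COL has no day 1 sample. The question behind the comparisons was how dormant and proliferating cells of this line differ, and how cells on BME change with time.

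Wnt proteins are secreted ligands that carry a lipid, which the enzyme Porcn attaches and the secreted enzyme Notum removes. When a ligand binds a Frizzled receptor together with Lrp5 or Lrp6, the Dishevelled proteins hold back the destruction complex of Axin, Apc, Gsk3 and casein kinase 1, beta-catenin accumulates, and with TCF/LEF factors it switches on target genes that include the pathway's own inhibitors Axin2, Notum, Rnf43, Znrf3 and Nkd1. In the mammary gland this pathway is known for its part in ductal branching and in stem cell maintenance, and it is often active in mouse mammary tumours.

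On BME at day 5 the dormant cells carried more RNA of 3 of the 4 tested ligands, 5 of the 7 tested Frizzled receptors, beta-catenin and all 3 tested TCF factors than cells on BME + COL. Of the 31 tested members, 19 were higher, 7 were lower and 5 had no call (limma on log2 of FPKM plus 0.1, all 9 libraries, adjusted p under 0.05). The higher members here and between the days on BME include Notum and Wnt4, which passed the filter through their BME day 5 libraries. Over all genes tested, 30.3% were higher and 45.3% lower in this comparison. The median log2 change was 0.46 for the members and -0.18 for all genes. The list was chosen with earlier results of these data known, so setting members against all genes, here and below, is no independent test. Between day 1 and day 5 on BME fewer members moved, with 10 higher, 4 lower and 17 without a call, where 9.09% of all genes were higher and 22.2% lower (median log2 change -0.03 for the members and -0.15 for all genes). In cells on BME + COL at day 5 against BME at day 1, 6 members were higher and 19 lower, against 34.2% and 31.8% of all genes (medians -0.41 and 0.03). The 3 comparisons share libraries in pairs, so their counts are not independent of each other.

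**Figure D1:**
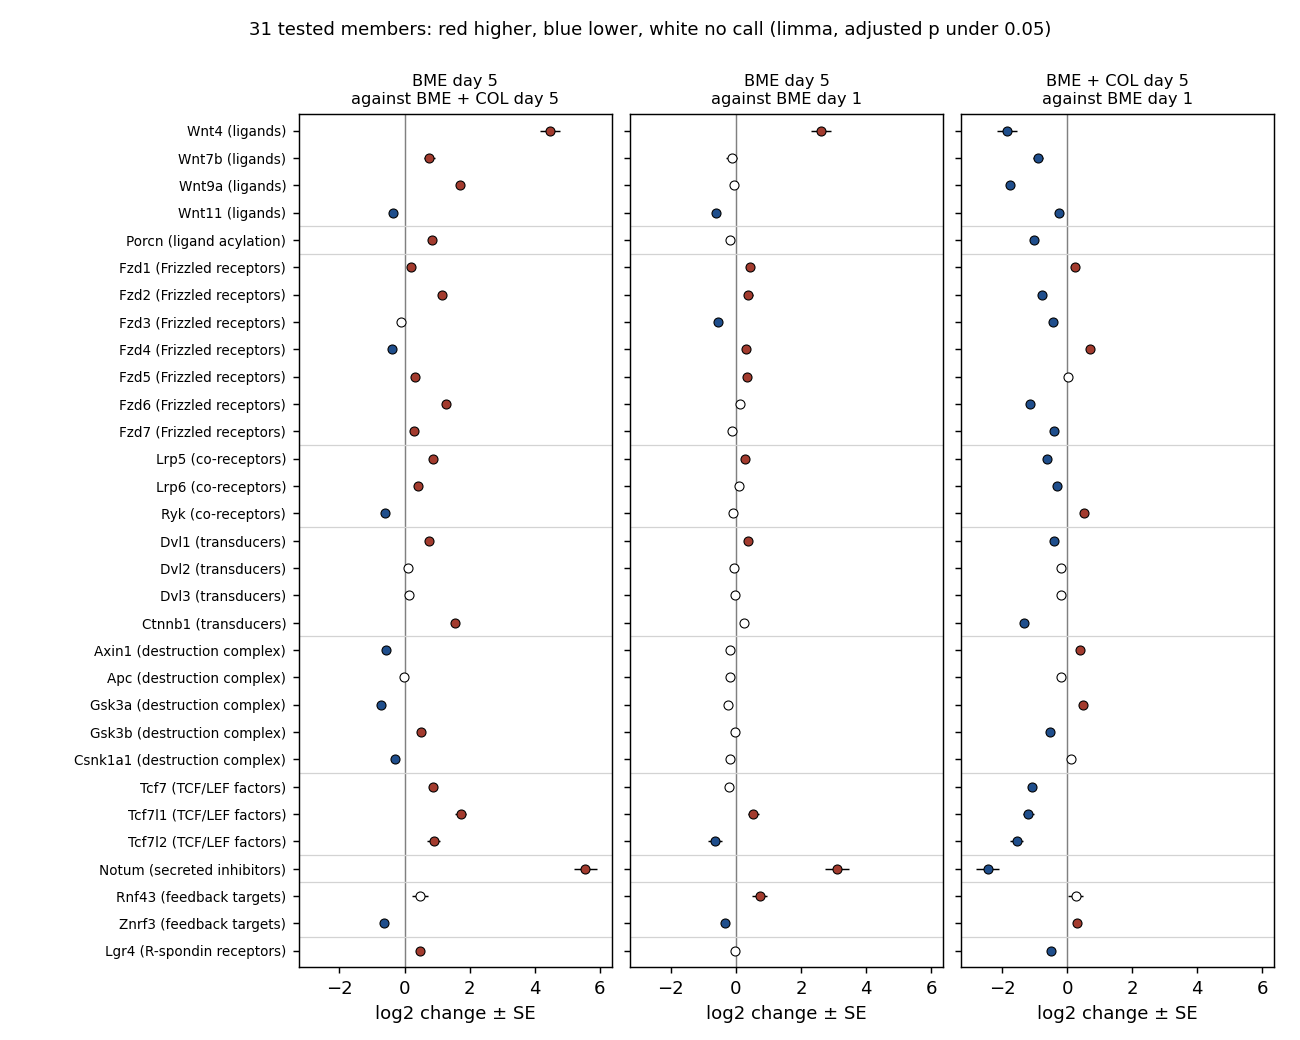
Log2 change with its SE (horizontal axis) of each of the 31 tested members, ordered by role, in the 3 comparisons. Red points are higher, blue points lower and white points without a call. In BME day 5 against BME + COL day 5, Notum (5.55) and Wnt4 (4.46) lie farthest to the right.

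The scale of FPKM matters for these counts. With values rescaled to TPM, the median of all genes in BME day 5 against BME + COL day 5 moved from -0.18 to 0.16, and 23 members were higher and 4 lower, where 46.3% of all genes were now higher and 31.7% lower. In the other comparisons TPM gave 11 higher and 3 lower members between the days on BME (14.6% and 21.2% of all genes), and 3 higher and 22 lower on BME + COL against BME at day 1 (25.1% and 46.4%). All 19 higher calls were kept under TPM, median-ratio scaling and the removal of genes shorter than 300 nt. Of the 7 lower calls 4 were kept under all 3 scalings, and those of Wnt11, Fzd4 and Csnk1a1 were lost under TPM and without short genes. The proliferation gene Mki67 had 14.1 to 17.9 FPKM on BME at day 1, 4.88 to 18.5 at day 5 and 42.3 to 48.3 on BME + COL. The library of replicate b on BME at day 5 lay apart from a and c, with a median tested gene at -0.27 on the log2 scale and 4.88 FPKM of Mki67, against 18.5 and 14.6. Without it, 17 members were higher and 7 lower against BME + COL, and 8 were higher and 4 lower against BME day 1. Of all 10497 genes, 3609 were then higher and 4675 lower against BME + COL, and 1267 and 2626 against BME day 1. Replicate a of BME day 5 differed in another way, with 7.25% of its FPKM in genes shorter than 300 nt, against 0.440% to 2.12% in the other libraries. Summed FPKM ranged from 2.88e+05 in replicate b of BME day 5 to 4.23e+05 in replicate c of BME + COL. Aligned sequence came to 7.21 to 9.37 gigabases a library. The epithelial markers Krt8, Krt18, Cdh1 and Krt14 were present in all libraries, Epcam stood at only 0.531 to 1.59 FPKM, and Krt5 and Krt19 were near 0. The 7 epithelial markers summed to 1459 to 1619 FPKM on BME at day 1, 784 to 1167 FPKM at day 5 and 2353 to 2460 FPKM on BME + COL, so they moved with the groups, and Cdh1 was 15.9 to 17.3 FPKM on BME at day 5 and 30.1 to 32.0 FPKM on BME + COL. Endothelial markers stayed under 1 FPKM (4 of 4), as did 5 of 7 fibroblast, 4 of 5 haematopoietic and 2 of 3 adipocyte markers. The exceptions were Col1a1, Pdgfra, Cd68 and Fabp4. Pdgfra reached 13.3 to 22.6 FPKM on BME and 2.69 to 2.74 FPKM on BME + COL, and Fabp4 reached 2.40 to 3.43 FPKM on BME at day 5 and at most 0.165 FPKM elsewhere. Col1a1 reached 1.46 to 4.32 FPKM, and Col1a2 and Col3a1 at most 0.111 FPKM. The other listed fibroblast markers, Dcn, Lum and Thy1, and the adipocyte markers Adipoq and Plin1 were at or near 0 in all libraries. The part of these markers in the results was not tested. These are bulk samples, in which fewer cells that express a gene and less RNA of it per cell cannot be told apart.

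Notum, Axin2 and Wnt4 stood out as members that were low on BME at day 1, far higher at day 5 and lowest on BME + COL (they were grouped together after their values were seen). Notum is the secreted esterase that inactivates Wnt ligands and is itself a target of beta-catenin. Its level was 0.593, 0.593 and 1.55 FPKM in replicates a, b and c of BME day 1, 6.11, 11.8 and 6.90 FPKM on BME at day 5, and 0.0695, 0.0521 and 0.0923 FPKM on BME + COL. The 3 groups did not overlap. The share of all genes without overlap was not computed, so a lack of overlap, here and below, only describes the values. The log2 change was 5.55 (SE 0.37, adjusted p = 1.43e-06) between BME and BME + COL at day 5, a ratio of means of 116, and 3.12 (SE 0.37, adjusted p = 0.000743) between day 5 and day 1 on BME, a ratio of 9.06. On BME + COL it was also lower than on BME at day 1 (log2 change -2.44, adjusted p = 0.000325). Read depth over Notum was only 0.648 to 0.971 on BME + COL, and the intervals given with the deposited values span 0.00550 to 0.154 FPKM there, so the size of the ratio is less certain than its direction.

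Axin2, the scaffold of the destruction complex that beta-catenin induces, followed the same order at a lower level. It stood at 0.0921, 0.0875 and 0.0825 FPKM on BME at day 1, at 0.808, 3.70 and 1.12 FPKM on BME at day 5, and at 0.0260, 0.0234 and 0.0139 FPKM on BME + COL. No groups overlapped, and replicate b of BME day 5 was the highest library, as it was for Notum. With a mean of 0.661 FPKM Axin2 did not pass the filter. In a limma fit to all 18136 genes without a filter, its log2 change was 3.74 (SE 0.45, adjusted p = 0.000200) against BME + COL and 3.11 (SE 0.45, adjusted p = 0.00488) against BME day 1. Between BME + COL and BME day 1 it was -0.63 (adjusted p = 0.316), and this call changed without replicate b of BME day 5 (-0.63, adjusted p = 0.0037). The added 0.1 FPKM is larger than the values on both matrices compared there and shrinks such changes.

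Wnt4, a ligand known from the branching of mammary ducts, was the third member of this kind. Its level was 0.672, 0.483 and 0.518 FPKM on BME at day 1, 2.95, 6.45 and 3.17 FPKM at day 5 and 0.0870, 0.0831 and 0.0783 FPKM on BME + COL, again without overlap. The log2 change was 4.46 (SE 0.31, adjusted p = 1.84e-06) against BME + COL and 2.63 (SE 0.31, adjusted p = 0.000743) against BME day 1. On BME + COL it was lower than on BME at day 1 by a log2 change of -1.84 (adjusted p = 0.000635). Notum and Wnt4 had means under 1 FPKM on BME at day 1 and on BME + COL, so both passed the filter through the BME day 5 libraries. Without replicate b the changes against BME + COL were 5.27 for Notum, 4.11 for Wnt4 and 3.12 for Axin2, and those against BME day 1 were 2.83, 2.27 and 2.49. All 6 stayed past the threshold when each of the 9 libraries was left out in turn. As the 3 genes were picked by these same values, this describes them and is no independent test.

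**Figure D2:**
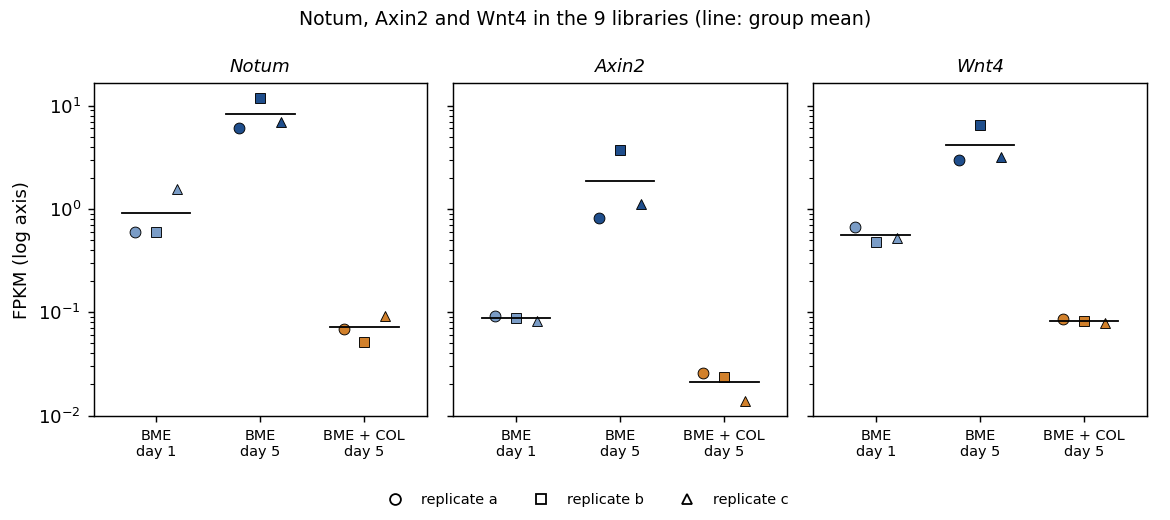
FPKM (log axis) of Notum, Axin2 and Wnt4 in each of the 9 libraries, by group. Symbols give the replicate and lines the group mean. In each panel the BME day 5 libraries lie above all others, with replicate b (square) on top, and the BME + COL libraries lie lowest.

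The sequences next to the starts of these genes are shown because the 3 genes moved together and beta-catenin reaches DNA through TCF/LEF factors, whose core motif is CTTTGA (in its longer form CTTTGAT). All coordinates are on mm9 (NCBIM37), and the start is that of the transcript in the files. The 300 bases before each start, read 5′ to 3′ on the gene's strand, held no CTTTGA on either strand, so no letters are in capitals. They are for Notum chr11:120522152-120522451 (minus strand), for Axin2 chr11:108781363-108781662 (plus strand) and for Wnt4 chr4:136833250-136833549 (plus strand), with 73.3%, 67.3% and 84.3% G and C.
Notum: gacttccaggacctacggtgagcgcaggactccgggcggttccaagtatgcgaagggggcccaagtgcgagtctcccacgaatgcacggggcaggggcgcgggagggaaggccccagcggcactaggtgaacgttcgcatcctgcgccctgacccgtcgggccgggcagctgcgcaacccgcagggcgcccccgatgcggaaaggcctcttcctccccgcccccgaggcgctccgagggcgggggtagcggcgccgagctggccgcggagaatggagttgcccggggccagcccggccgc
Axin2: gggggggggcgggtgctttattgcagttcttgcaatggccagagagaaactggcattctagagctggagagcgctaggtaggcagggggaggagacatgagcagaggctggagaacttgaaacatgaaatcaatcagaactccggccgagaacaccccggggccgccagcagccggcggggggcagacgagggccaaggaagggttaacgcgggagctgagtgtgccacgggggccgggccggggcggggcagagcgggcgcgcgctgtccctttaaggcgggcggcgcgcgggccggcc
Wnt4: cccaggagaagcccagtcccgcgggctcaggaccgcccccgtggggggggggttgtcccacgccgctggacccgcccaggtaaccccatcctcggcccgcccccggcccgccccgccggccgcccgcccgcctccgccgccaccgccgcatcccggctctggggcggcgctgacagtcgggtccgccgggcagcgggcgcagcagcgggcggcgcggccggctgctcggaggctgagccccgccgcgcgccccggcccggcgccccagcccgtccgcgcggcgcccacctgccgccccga

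A window of 2000 bases centred on the start held 4 matches in Axin2, of which 2 were CTTTGAT, 1 CTTTGAT match in Notum and none in Wnt4. They are shown as stretches of 30 bases with CTTTGA in capitals. The Axin2 matches lie 78 bases (in an exon), 441, 883 and 903 bases (in an intron) after the start, at chr11:108781729-108781758, chr11:108782092-108782121, chr11:108782534-108782563 and chr11:108782554-108782583. The Notum match lies 409 bases before the start, outside the Notum transcript, at chr11:120522543-120522572 on the minus strand. Whether it lies in another gene was not checked.
Axin2 at 78: gagccggctgcgCTTTGAtaaggtcctggc
Axin2 at 441: ctcggctcgcgcCTTTGAagtgcacagtta
Axin2 at 883: gcggccggcgcgCTTTGAtgtgcggggcgg
Axin2 at 903: tgcggggcggcgCTTTGAagttggcaggcc
Notum at 409: tgtccgccgccgCTTTGAtcccgggggccc
Such matches are common. Of 25959 transcript starts in the files, 15.44% had CTTTGA in the 300 bases before them and 71.52% in the 2000-base window, and CTTTGAT was in 3.428% and 23.53%. Among 63 starts of the members these counts were 8 and 42 for CTTTGA, and 2 and 15 for CTTTGAT. A match describes letters only, and none of them was tested for binding.

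The ligands changed in their make-up as well as in their amount. The 12 ligand genes summed to 14.8 ± 0.79 FPKM on BME at day 1, 15.7 ± 2.56 at day 5 and 8.39 ± 0.19 on BME + COL (SD, n = 3). Of 4 tested ligands, 3 were higher and 1 lower on BME than on BME + COL at day 5, beside 30.3% and 45.3% of all genes. Between days on BME 1 was higher, 1 lower and 2 had no call (9.09% of all genes were higher and 22.2% lower). All 4 were lower on BME + COL than on BME at day 1, as were 31.8% of all genes. Wnt9a showed the clearest difference between matrices after Wnt4, with 4.12, 4.95 and 4.37 FPKM on BME at day 1, 4.09, 4.31 and 4.44 at day 5 and 1.19, 1.41 and 1.16 on BME + COL. The days on BME overlapped, and BME + COL lay below both (log2 change 1.70, SE 0.10, adjusted p = 9.95e-07 against BME day 5). Wnt7b was 2.83, 3.15 and 3.88 FPKM on BME at day 1, 2.70, 3.83 and 2.53 at day 5 and 1.70, 1.73 and 1.68 on BME + COL, a log2 change of 0.77 (SE 0.16, adjusted p = 0.00199) between matrices at day 5.

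Wnt11, best known as a ligand of signalling without beta-catenin, went the other way. Its level was 6.0, 6.53 and 6.03 FPKM on BME at day 1, 3.92, 3.80 and 4.42 at day 5 and 5.14, 5.25 and 5.24 on BME + COL, with no overlap between groups. The fall on BME between days (log2 change -0.60, adjusted p = 0.00115) was kept in all scalings, whereas the lower level against BME + COL (-0.36, adjusted p = 0.00192) was not (-0.02 with TPM and 0.00 without short genes). As a share of the summed ligand FPKM, Wnt11 made up 42.0% on BME at day 1, 26.3% at day 5 and 62.1% on BME + COL, and Wnt4 made up 3.81%, 25.9% and 0.987%. A share within a library does not depend on the scale of that library. The top ligand was Wnt11 in all 3 libraries of BME day 1 and of BME + COL, and on BME at day 5 it was Wnt9a in a and c and Wnt4 in b.

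**Figure D3:**
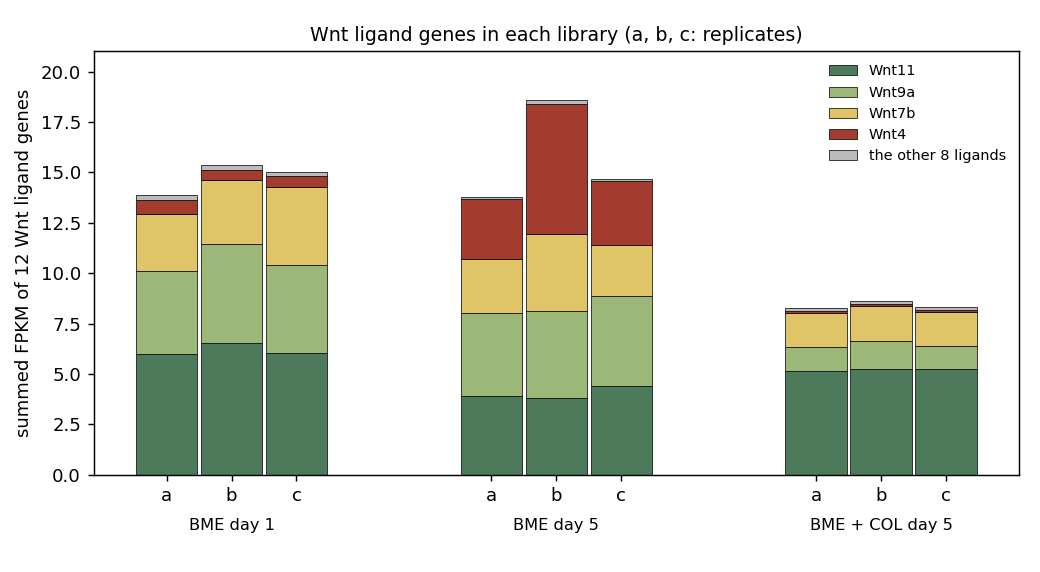
Summed FPKM of the 12 Wnt ligand genes in each library (bars, replicates a to c within a group), divided into Wnt11, Wnt9a, Wnt7b, Wnt4 and the other 8 ligands. Wnt4 takes 25.9% of the sum on BME at day 5, and on BME + COL the bars reach only 8.26 to 8.61 FPKM, most of it Wnt11.

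The other 8 ligands did not pass the filter. Wnt5b reached 0.0694 to 0.223 FPKM, while Wnt3, Wnt3a, Wnt5a, Wnt6, Wnt7a, Wnt10a and Wnt10b stayed at or below 0.0375 FPKM in all libraries. In the fit without a filter Wnt5b was lower on BME at day 5 (log2 change -0.65, adjusted p = 0.0221) and on BME + COL (-0.59, adjusted p = 0.0114) than on BME at day 1. Porcn, the enzyme that attaches the lipid to Wnt proteins, had 3.61, 3.45 and 3.45 FPKM on BME at day 1, 3.40, 2.79 and 3.14 at day 5 and 1.57, 1.78 and 1.74 on BME + COL. It was higher on BME than on BME + COL at day 5 by a log2 change of 0.84 (SE 0.10, adjusted p = 4.71e-05). Porcn and Notum, which add and remove the same lipid, were thus both higher on BME at day 5 than on BME + COL, and between the days on BME only Notum was called.

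Frizzled receptors, which bind the ligands at the cell surface, summed to 68.0 ± 3.59 FPKM on BME at day 1, 75.8 ± 3.89 at day 5 and 41.8 ± 0.72 on BME + COL (SD, n = 3). At day 5, 5 of 7 tested Frizzled genes were above their level on BME + COL in cells on BME, 1 was lower and 1 had no call. Over all genes 30.3% were higher and 45.3% lower. Fzd6 took 61.1% of the sum on BME at day 1, 60.7% at day 5 and 45.1% on BME + COL. Its level was 40.2, 39.1 and 45.5 FPKM, then 44.5, 42.3 and 51.3 FPKM, and on BME + COL 18.7, 19.2 and 18.6 FPKM. The days on BME overlapped and BME + COL lay well below (log2 change 1.28, SE 0.09, adjusted p = 2.48e-06). Between the days Fzd6 had no call (0.14, adjusted p = 0.241), but it passed with TPM (0.26, adjusted p = 0.0336). Fzd2 was 5.78, 5.53 and 5.59 FPKM on BME at day 1, 6.31, 9.27 and 6.87 at day 5 and 3.05, 3.23 and 3.54 on BME + COL (1.15, SE 0.13, adjusted p = 3.57e-05 at day 5).

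The other Frizzled receptors moved less and not all in the same direction. Fzd1 (0.21, adjusted p = 0.0311), Fzd5 (0.31, adjusted p = 0.0202) and Fzd7 (0.29, adjusted p = 0.0444) were higher on BME than on BME + COL at day 5 in log2 change. Each lost its call without some libraries, for Fzd1 without replicate b of BME day 5 or any of BME + COL (adjusted p up to 0.0881), for Fzd5 without replicate a or c of BME + COL (up to 0.0592) and with only the most abundant transcript of each gene (0.03, adjusted p = 0.929), and for Fzd7 without any library but replicate c of BME day 1 or a of BME day 5 (up to 0.116). For Fzd7, leaving out a BME day 1 library altered the pooled spread and so the adjusted p, but not the log2 change between matrices. Fzd4 had 1.49, 1.64 and 1.39 FPKM on BME at day 1, 2.10, 1.76 and 1.87 at day 5 and 2.58, 2.48 and 2.49 on BME + COL. It was thus highest on BME + COL (0.71 against BME day 1, adjusted p = 0.000386), and its lower level on BME at day 5 (-0.38, adjusted p = 0.00961) was not kept under TPM (-0.05). Fzd3 fell between the days on BME by 0.54 on the log2 scale (adjusted p = 0.00440).

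Fzd8 and Fzd9 were under the filter and differed in opposite directions in the fit without one. Fzd8 was 0.944, 1.06 and 0.803 FPKM on BME at day 1, 1.08, 1.89 and 1.33 at day 5 and 0.443, 0.567 and 0.465 on BME + COL (log2 change 1.35, SE 0.21, adjusted p = 0.000752 between matrices at day 5). Fzd9 was 0.195, 0.166 and 0.184 FPKM, then 0.308, 0.222 and 0.179 FPKM, and 0.596, 0.684 and 0.674 FPKM on BME + COL (-1.17, SE 0.15, adjusted p = 0.000310). Neither gene overlapped between BME and BME + COL.

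Among the co-receptors, Lrp5 and Lrp6, which act with Frizzled in beta-catenin signalling, were higher on BME, and Ryk, a Wnt receptor of the tyrosine kinase family, was lower. Lrp5 had 15.2, 15.0 and 16.2 FPKM on BME at day 1, 20.7, 16.5 and 19.6 at day 5 and 10.2, 10.4 and 9.80 on BME + COL, a log2 change of 0.89 (SE 0.09, adjusted p = 1.69e-05) between matrices. Lrp6 had 8.15, 8.06 and 8.14 FPKM, then 8.92, 8.64 and 8.45 FPKM, and 6.46, 7.14 and 5.97 FPKM on BME + COL (0.41, SE 0.07, adjusted p = 0.000746). Ryk was 31.8, 32.8 and 35.6 FPKM, then 33.7, 27.4 and 34.0 FPKM, and 47.9, 48.2 and 47.0 FPKM on BME + COL (-0.60, SE 0.10, adjusted p = 0.000333). All 3 separated BME + COL from both BME groups without overlap, and the share of all genes that did so was not computed. Ror2, a receptor of Wnt5a, was listed at 0 in 8 libraries and at 0.00498 FPKM in the other.

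Beta-catenin had by far the highest level of the members, and it was lower on BME + COL. Ctnnb1, which encodes it and also serves cadherin junctions, had 523, 493 and 629 FPKM on BME at day 1, 637, 640 and 667 FPKM at day 5 and 219, 226 and 214 FPKM on BME + COL. The groups did not overlap. The log2 change was 1.56 (SE 0.10, adjusted p = 1.25e-06) between matrices at day 5 and -1.31 (adjusted p = 6.06e-06) between BME + COL and BME at day 1. Between days on BME it was 0.25 (adjusted p = 0.0829), and it passed the threshold with TPM (0.37, adjusted p = 0.0226) and without replicate c of BME day 1 (0.35, adjusted p = 0.0207). The files hold 2 Ctnnb1 transcripts, of 3423 and 3623 nt, and the shorter made up 60.3% to 61.5% of the gene's FPKM on BME at day 1, 55.1% to 57.3% at day 5 and 54.7% to 62.6% on BME + COL. Both transcripts were thus lower on BME + COL (131 and 88.4 FPKM on average, against 366 and 282 on BME at day 5).

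Of the Dishevelled genes, which pass the signal from the receptor, only Dvl1 was called on the deposited scale. It had 26.1, 26.5 and 29.5 FPKM on BME at day 1, 31.9, 40.5 and 33.9 at day 5 and 21.2, 21.2 and 20.3 on BME + COL (log2 change 0.75, SE 0.10, adjusted p = 8.58e-05), with no overlap. Dvl2 and Dvl3, between 6.58 and 9.25 FPKM in all libraries, had no call in any comparison on that scale. With TPM both were higher on BME than on BME + COL at day 5 (Dvl2 0.46, adjusted p = 0.00904, and Dvl3 0.49, adjusted p = 0.00209) and lower on BME + COL than on BME at day 1 (-0.39, adjusted p = 0.0220, and -0.40, adjusted p = 0.00744). Dvl3 also passed between the matrices with median-ratio scaling (0.24, adjusted p = 0.0276).

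In the destruction complex, 1 of 5 tested genes was higher on BME than on BME + COL at day 5, 3 were lower and 1 had no call, beside 30.3% and 45.3% of all genes. With TPM, Gsk3b and Apc were higher, Axin1 and Gsk3a lower and Csnk1a1 without a call. By limma 0 of 5 were called between the days on BME, where 1 (Gsk3a) had an unadjusted p under 0.05 and passed without replicate a of BME day 5 (-0.31, adjusted p = 0.0390). Axin1, the scaffold that Axin2 resembles, was 14.5, 15.3 and 13.8 FPKM on BME at day 1, 14.7, 11.0 and 13.2 at day 5 and 19.2, 19.7 and 18.1 on BME + COL (-0.56, SE 0.10, adjusted p = 0.000877). Between the matrices at day 5 Axin1 was thus lower on BME and Axin2 higher. The kinase genes split, with Gsk3a at 24.2, 23.5 and 26.6 FPKM, then 22.9, 18.2 and 21.9 FPKM, and 35.3, 34.2 and 34.3 FPKM on BME + COL (-0.72, SE 0.10, adjusted p = 9.94e-05). Its paralogue Gsk3b was 13.9, 13.2 and 12.3 FPKM, then 14.9, 11.0 and 13.0 FPKM, and 9.27, 9.56 and 8.44 FPKM on BME + COL (0.50, SE 0.11, adjusted p = 0.00243). Csnk1a1, the casein kinase that starts beta-catenin phosphorylation, changed by -0.30 between matrices (adjusted p = 0.0112), but by 0.04 with TPM, and Apc changed by -0.01 (adjusted p = 0.909), but by 0.33 with TPM (adjusted p = 0.00322).

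The TCF/LEF factors bring beta-catenin to DNA, and at day 5 all 3 tested genes were above their BME + COL level in cells on BME. Of all genes, 30.3% were higher in this comparison. Tcf7 had 16.9, 17.2 and 19.7 FPKM on BME at day 1, 17.1, 12.6 and 17.0 at day 5 and 8.68, 8.27 and 8.19 on BME + COL (log2 change 0.87, SE 0.12, adjusted p = 0.000133). Tcf7l2 had 12.9, 12.7 and 16.4 FPKM, then 10.6, 6.11 and 10.9 FPKM, and 4.76, 4.79 and 4.58 FPKM on BME + COL (0.90, SE 0.20, adjusted p = 0.00240), a call that was lost with only the most abundant transcript of each gene (0.86, adjusted p = 0.0515). Tcf7l1, mostly known as a repressor, had 1.57, 1.38 and 1.14 FPKM, then 1.88, 2.04 and 2.10 FPKM, and 0.660, 0.468 and 0.504 FPKM on BME + COL (1.72, SE 0.17, adjusted p = 1.75e-05). None of the 3 overlapped between BME and BME + COL.

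Over time on BME, Tcf7l2 was lower at day 5 (-0.64, adjusted p = 0.0395), Tcf7l1 was higher (0.54, adjusted p = 0.0435), and Tcf7 had no call (-0.22, adjusted p = 0.185). Tcf7l1 has 2 transcripts in the files. That of 2784 nt made up 26.7% to 46.5% of the gene's FPKM on BME at day 1 and 42.9% to 68.6% at day 5, and with only the most abundant transcript of each gene the change of Tcf7l1 between days was 0.00 (adjusted p = 0.997). The call of Tcf7l2 between days was lost in that setting too (-0.58, adjusted p = 0.229). Lef1 stayed at or below 0.0191 FPKM. The sum of the 4 factors was 33.3 ± 3.46 FPKM on BME at day 1, 26.8 ± 5.23 at day 5 and 13.6 ± 0.43 on BME + COL (SD, n = 3).

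**Figure D4:**
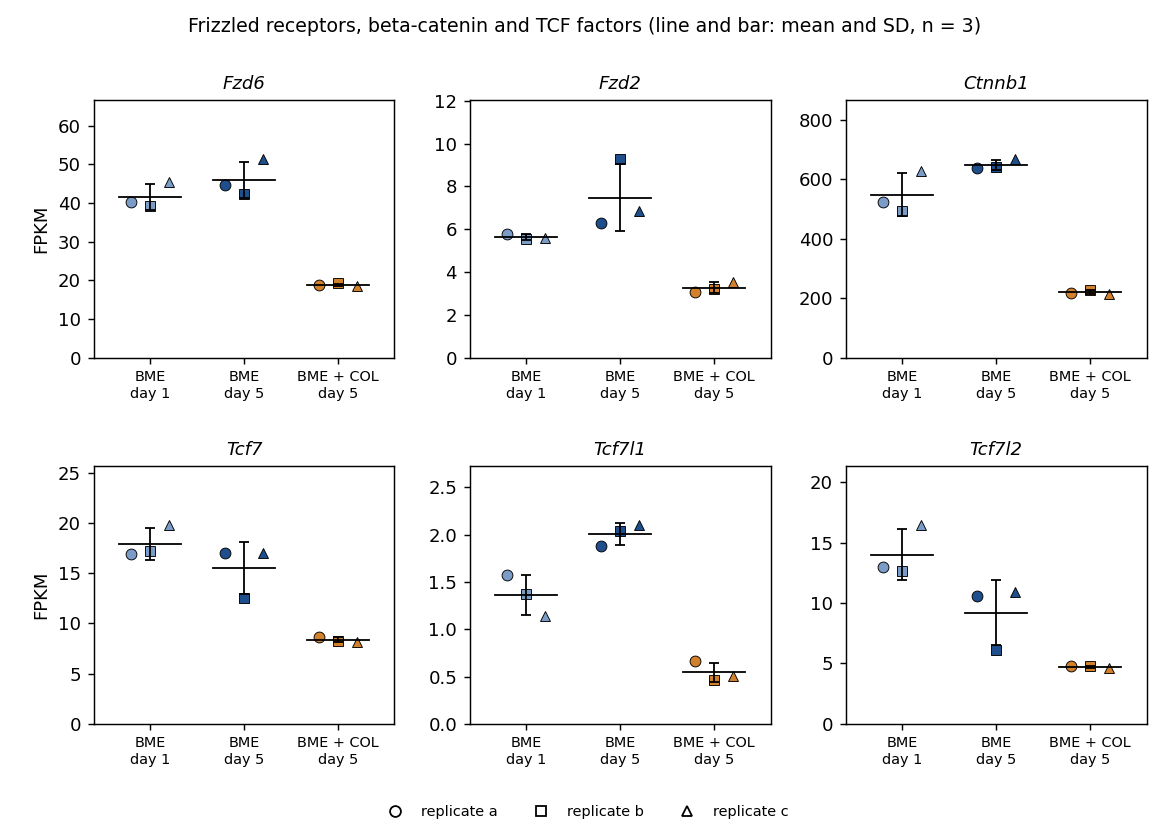
FPKM (linear axes from 0) of Fzd6, Fzd2, Ctnnb1, Tcf7, Tcf7l1 and Tcf7l2 in the 9 libraries, by group. Symbols give the replicate, lines the mean and bars the SD (n = 3). In all 6 panels the BME + COL libraries lie below all BME libraries.

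Among secreted inhibitors, 1 of 7 passed the filter, which was Notum. The 7 genes summed to 1.02 ± 0.56 FPKM on BME at day 1, 8.44 ± 3.15 at day 5 and 0.178 ± 0.0104 on BME + COL (SD, n = 3), most of it Notum in the BME libraries. Dkk1, which blocks Lrp5 and Lrp6, reached 0.0340 to 0.0962 FPKM, and without a filter it was higher on BME than on BME + COL at day 5 (0.37, adjusted p = 0.0165). Sfrp1, which binds Wnt proteins, reached 0.00176 to 0.148 FPKM, highest in replicate b of BME day 5. Dkk2, Dkk3 and Wif1 stayed at or below 0.0274 FPKM, and Sfrp2 was listed at 0 in all 9 libraries.

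The feedback targets of beta-catenin did not share 1 direction. Rnf43 and Znrf3 encode ubiquitin ligases that remove Frizzled receptors from the cell surface. Rnf43 had 0.973, 1.01 and 0.982 FPKM on BME at day 1, 1.39, 2.66 and 1.36 at day 5 and 1.33, 1.14 and 1.16 on BME + COL, where replicate b of BME day 5 again lay highest. It was higher at day 5 than at day 1 on BME (0.74, SE 0.23, adjusted p = 0.0399) and had no call between matrices (0.47, adjusted p = 0.0896), although it passed with TPM (0.80, adjusted p = 0.0301) and without replicate a or c of BME day 5 (adjusted p = 0.0451 and 0.0416). Znrf3 had 3.03, 3.26 and 3.06 FPKM, then 2.82, 2.20 and 2.45 FPKM, and 3.82, 4.01 and 3.79 FPKM on BME + COL, and was lower on BME at day 5 than on BME + COL (-0.62, SE 0.10, adjusted p = 0.000302). Nkd2, a binding partner of Dishevelled, reached 0.188 to 0.440 FPKM and Nkd1 at most 0.0143 FPKM, with no call for Nkd2 in the fit without a filter.

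Lgr4, a receptor for R-spondins, which counter Rnf43 and Znrf3, was 3.17, 3.04 and 3.72 FPKM on BME at day 1, 3.22, 2.86 and 3.75 at day 5 and 2.38, 2.46 and 2.17 on BME + COL. The days overlapped, and BME + COL lay lower (0.46, SE 0.12, adjusted p = 0.00602 for BME day 5 against it). Lgr5, its relative and a stem cell marker, reached 0.00677 to 0.0286 FPKM.

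Fewer calls between days on BME than between matrices held with each library left out, at 3 of 10 higher and 2 of 4 lower against 16 of 19 and 7 of 7. With 1 library left out, 533 to 1267 of all 10497 genes were higher and 1018 to 3248 lower between the days. With all libraries these were 954 and 2327. Between the matrices 2916 to 3609 were higher and 4358 to 4846 lower, against 3179 and 4756 with all libraries. The share of all genes that kept a call in every such fit was not computed. Wnt4, Fzd1 and Notum among the 10 higher members, and Wnt11 and Fzd3 among the 4 lower, kept their call when each of the 9 libraries was left out in turn. Fzd2 (0.38, adjusted p = 0.0499) and Znrf3 (-0.32, adjusted p = 0.0379) lost theirs without any library but replicate a of BME day 5, with adjusted p up to 0.126 and 0.111. The calls of Lrp5 (0.29, adjusted p = 0.0375) and Fzd4 (0.32, adjusted p = 0.0487) were lost without any library but replicate b of BME day 5 (up to 0.109 and 0.115). Rnf43 and Tcf7l2 lost theirs when any 1 library of BME day 1 or of BME + COL was left out (up to 0.0977 and 0.120). For each gene, leaving out a BME + COL library altered the pooled spread and so the adjusted p, but not the log2 change between the days. Tcf7l1 lost its call in 6 of 9 fits (up to 0.0953), namely without any library of BME day 1, replicate b or c of BME day 5 or replicate c of BME + COL. Fzd5 (0.35, adjusted p = 0.0302) lost it without replicate a or b of BME day 1 or a of BME + COL (up to 0.0874) and with only the most abundant transcript (0.16, adjusted p = 0.612), and Dvl1 (0.37, adjusted p = 0.0228) without replicate a or b of BME day 1 (up to 0.0823).

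The remaining comparison, of BME + COL at day 5 with BME at day 1, differs in both matrix and time, which cannot be told apart. Higher on BME + COL were Fzd1, Fzd4, Ryk, Axin1, Gsk3a and Znrf3, of which Fzd4, Ryk and Gsk3a were kept under all 3 scalings. The call of Fzd1 (0.24, adjusted p = 0.0187) was lost without replicate a or b of BME + COL (up to 0.0633) and that of Znrf3 (0.31, adjusted p = 0.0211) without replicate a of BME day 1 or a or b of BME + COL (up to 0.0731). Among the 19 lower members, Notum (-2.44), Wnt4 (-1.84), Wnt9a (-1.76), Tcf7l2 (-1.54) and Ctnnb1 (-1.31) changed most on the log2 scale. All 19 were kept under the 3 scalings, and all but Wnt11 were kept with each library left out (Wnt11 -0.24, adjusted p = 0.0188, and up to 0.0735 without replicate b of BME day 1 or a or b of BME + COL).

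Without any filter 52 members entered the fit. Of these, 21 were higher and 8 lower on BME than on BME + COL at day 5 (25.3% and 28.7% of 18136 genes), 7 were higher and 3 lower at day 5 than at day 1 on BME (7.18% and 11.0%), and 7 were higher and 21 lower on BME + COL than on BME at day 1 (20.8% and 23.4%).

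Other genes of the pathway were read from a list of 85 symbols, of which 84 were in the files and 48 were tested (1 of the symbols, Lgr5, is also a member). On BME at day 5, 19 were higher and 12 lower than on BME + COL (30.3% and 45.3% of all genes), 6 were higher and 10 lower than on BME at day 1 (9.09% and 22.2%), and on BME + COL 8 were higher and 19 lower than on BME at day 1 (34.2% and 31.8%). Their median log2 change between matrices at day 5 was 0.07, against -0.18 for all genes. The genes named here and in the next paragraph had the largest changes among the called genes of their group. They were picked by these values and do not stand for the list. Wls, the carrier that takes Wnt proteins to the cell surface, had 83.9 ± 1.20 FPKM on BME at day 1, 126 ± 12.8 at day 5 and 40.6 ± 1.19 on BME + COL (SD, n = 3), with log2 changes of 1.62 (adjusted p = 4.54e-07) between matrices and 0.58 (adjusted p = 0.00231) between days. The R-spondin gene Rspo3 was higher on BME + COL, at 5.05 ± 0.23 FPKM against 0.897 ± 0.42 on BME at day 5 (-2.48, adjusted p = 5.38e-05). As Rspo3 averaged 0.717 FPKM on BME at day 1, it passed the filter through its BME + COL libraries, and its call only describes it. The R-spondin receptor Lgr6 was lower on BME + COL, at 11.0 ± 0.56 against 49.8 ± 3.23 FPKM (2.17, adjusted p = 8.81e-08). Of the receptors, Ror1 was 3.69 ± 0.24 FPKM on BME + COL and 0.334 ± 0.15 on BME at day 5 (-3.18, adjusted p = 5.43e-06).

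Tle1 and Tle2 encode corepressors of the Groucho family, which bind TCF/LEF factors. Tle2 had 4.63 ± 0.91 FPKM on BME at day 5 and 0.604 ± 0.0691 on BME + COL (2.73, adjusted p = 2.50e-06), and Tle1 rose between days on BME from 12.6 ± 2.41 to 27.4 ± 9.87 FPKM (1.08, adjusted p = 0.00879). In planar polarity, Celsr2 rose on BME between days (0.90, adjusted p = 0.00820) and Daam1 fell by 0.55 on the log2 scale (adjusted p = 0.0106). Celsr2 averaged 0.963 FPKM on BME at day 1, 1.92 at day 5 and 0.906 on BME + COL. It thus passed the filter through its BME day 5 libraries, and its call only describes it. Of 9 tested genes known as other transcriptional targets, 4 were higher and 3 lower between matrices at day 5 (30.3% and 45.3% of all genes), and between the days on BME 3 were lower (22.2% of all genes) and the other 6 had no call. Jag1 fell on BME from 55.5 ± 4.73 to 29.6 ± 6.73 FPKM (log2 change -0.93, adjusted p = 0.00380) and was 12.3 ± 0.64 FPKM on BME + COL. Wisp2 was 84.1 ± 28.3 and 83.0 ± 17.4 FPKM on BME at day 1 and day 5 and 17.2 ± 0.16 FPKM on BME + COL.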

How the data were processed

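RNA-seq values of 9 D2.0R libraries were used as the authors deposited them, as FPKM per transcript with Cufflinks intervals (30563 transcripts, 1 file a library, mm9). Before that, per the submitters' processing notes, reads went through CASAVA 1.8.4, Trimmomatic 0.30 and TopHat2 2.0.8. Partek and the builds mm9 and NCBIM37 are also named there, and no version of Cufflinks is given in the sources used here. The study tested genes in Partek on alignments, which these files do not allow. The study's methods call the 3 samples of a group biological replicates.

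FPKM were summed over each gene's transcripts, and genes averaging 1 FPKM or more (10497) were kept. Group means of log2(FPKM + 0.1) were fitted to all 9 libraries by limma, with its variance prior following the mean level and 6 residual degrees of freedom. The p-values were two-sided and adjusted by Benjamini and Hochberg over all genes. The pseudocount understates changes of low genes. FPKM carry no counts, so no count test was run, and precision at low values was read from the deposited intervals and read depth. The fit was tested on simulated data. The members, roles and other lists were chosen with earlier results of these data known. Values in every library were given for up to 3 members a role with the largest change among those called, plus Ctnnb1, Axin2 and Notum, and Wnt11, Fzd4, Fzd8 and Fzd9 were added after their values were seen. The replicate letters are not said to mark a shared culture or day. Same-lettered libraries deviated from their group means with correlations from -0.23 to 0.096, so letters were not used as a block. Alternatives were other pseudocounts, filters and scalings, single transcripts, a replicate block, fewer libraries and leaving out each library. Motifs and sequences were read from the NCBIM37 genome. The fits used limma 3.58.1 in R 4.3.3. Tables and figures were made in Python 3.11.15 with numpy 2.4.6, pandas 2.3.3 and matplotlib 3.10.9.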

Additional observations from a re-analysis of the deposited data

How the results depend on the processing

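A minimum mean of 5 FPKM left 19 members to test. Of these, 10 were higher and 5 lower in BME day 5 against BME + COL day 5, and 3 higher and 2 lower against BME day 1. In BME + COL day 5 against BME day 1, 4 were higher and 11 lower. Of the 7631 genes left by this filter, 1991 were higher and 3934 lower in the first comparison. In the second 585 were higher and 1999 lower, and in the last 2975 were higher and 2169 lower. TPM and leaving out genes shorter than 300 nt gave 4 lower in the first comparison and 3 higher in the last. Over all genes, 3327 of 10497 and 3214 of 10417 were lower in the first, and 2639 and 2711 higher in the last. In BME day 5 against BME day 1, the most abundant transcript gave 6 higher, and a fit to only the 6 libraries gave 3 higher and 2 lower. Of all 10497 genes, 874 were higher with the most abundant transcript, and 452 were higher and 618 lower with the 6 libraries. With all 9 libraries and summed transcripts these were 954 and 2327. With 1 library left out, 3 to 8 members were higher and 2 to 5 lower, and 533 to 1267 and 1018 to 3248 of all genes. With the replicate block 4 members were higher and 3 lower there (858 and 2061 of all genes), and the letters share only a name. The block ended the calls of Fzd2, Fzd4, Fzd5, Lrp5, Tcf7l1, Rnf43 and Znrf3 there (adjusted p = 0.0613, 0.0795, 0.0556, 0.0522, 0.0639, 0.0521 and 0.0661) and that of Fzd7 in BME day 5 against BME + COL day 5 (0.0555), and changed no other call of a tested member. The cause of these shifts was not tested.

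Signs turned mostly in BME day 5 against BME day 1, in values without a call apart from Tcf7l1. Under TPM, median-ratio scaling and without short genes the log2 changes were 0.058, 0.051 and 0.094 for Wnt9a, 0.039, 0.032 and 0.076 for Ryk, 0.092, 0.085 and 0.129 for Gsk3b, 0.10, 0.093 and 0.137 for Lgr4, 0.070, 0.063 and 0.107 for Dvl2 and 0.089, 0.082 and 0.126 for Dvl3. Fzd7 had 0.005 with TPM and 0.043 without short genes, where Wnt7b had 0.024. With the most abundant transcript Porcn had 0.047 and Tcf7l1 -0.003. With 1 library left out the changes ranged from -0.117 to 0.012 for Wnt9a, from -0.135 to 0.020 for Ryk, from -0.131 to 0.086 for Gsk3b, from -0.116 to 0.074 for Lgr4 and from -0.095 to 0.036 for Dvl3. In BME day 5 against BME + COL day 5, the called values of Csnk1a1 and Wnt11 turned, Csnk1a1 to 0.044 with TPM and 0.067 without short genes and Wnt11 to 0.001 without short genes. Values without a call that turned there were those of Fzd3 (0.220 and 0.242) and Apc (0.329 with TPM, 0.080 with median-ratio scaling, 0.352 without short genes, and -0.075 to 0.057 with 1 library left out). In BME + COL day 5 against BME day 1, Csnk1a1 turned to -0.110 and -0.096 with TPM and without short genes, and Fzd5 to -0.169 and -0.155 (-0.023 to 0.096 with 1 library left out). Of the other single-gene values 1639 kept their side of the threshold, 130 lost it and 33 gained it. Depth limits Notum, Axin2 and Wnt4 on BME + COL, where the interval of Axin2 reaches 0 in replicate c.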
